A study of Homo sapiens with 24 samples.

Results

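The gene that makes itaconate and 8 genes of the tricarboxylic acid (TCA) cycle were followed through macrophage-like THP-1 cells given bacterial lipopolysaccharide (LPS), S-(1,2-dichlorovinyl)-L-cysteine (DCVC), or both. The 9 members, taken by name from the 38735 named genes of the table, were ACOD1, CS, IDH2, IDH3A, OGDH, SUCLG1, SDHA, FH and MDH2. All 9 passed the filter on low values, a mean of at least 10 over all libraries, which kept 13900 genes. ACOD1 passed it only through the groups given LPS, as it averaged 0.607 normalized counts with DCVC alone and 1.05 with neither treatment. THP-1 is an established human monocytic leukaemia line, and every group was differentiated with 100 nM of the phorbol ester PMA for 24 h before treatment. DCVC_LPS cells then had 5 µM DCVC for 24 h and, in fresh medium, 100 ng/mL LPS for 4 h. LPS cells had medium in place of DCVC and then the same LPS exposure. DCVC cells had 5 µM DCVC for 24 h and no LPS, and Control cells had neither. Each group held 6 poly-A RNA libraries named A to F, 24 in all. DCVC is a metabolite of the solvent trichloroethylene in which cysteine is joined to a dichlorovinyl group, and by its title the study concerns its effect on the inflammatory transcripts and cytokines that LPS induces. The labels do not say whether the 6 letters are separate cultures, and the p-values below then rest on library-to-library spread that may be technical.

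The TCA cycle runs in the mitochondrial matrix, where citrate synthase joins acetyl-CoA to oxaloacetate and the later enzymes oxidise citrate stepwise back to oxaloacetate. In macrophages activated through the LPS receptor TLR4, ACOD1 (also called IRG1) diverts cis-aconitate, an intermediate of the cycle, to itaconate. Itaconate is known for inhibiting succinate dehydrogenase and for modifying cysteines of proteins such as KEAP1, and activated macrophages are known to accumulate succinate and citrate.

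Promoter sequences are shown first for 3 members that stand for the patterns below, namely a gene with almost no reads until LPS (ACOD1), a gene raised by LPS (IDH3A) and a gene that changed little on the deposited scale (SDHA). They were picked with these values known. They are the 250 bases before the RefSeq transcription start on GRCh38.p14, plus strand, written 5′ to 3′, and capitals mark matches to the motifs searched. RefSeq promoter windows were matched for 8 of the 9 members, the exception being OGDH.
ACOD1, chr13:76948261-76948510: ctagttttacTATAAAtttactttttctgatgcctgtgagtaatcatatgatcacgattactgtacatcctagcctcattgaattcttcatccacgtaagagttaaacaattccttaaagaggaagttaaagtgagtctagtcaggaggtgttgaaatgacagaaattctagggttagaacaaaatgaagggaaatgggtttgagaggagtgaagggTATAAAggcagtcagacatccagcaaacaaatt
IDH3A, chr15:78149112-78149361: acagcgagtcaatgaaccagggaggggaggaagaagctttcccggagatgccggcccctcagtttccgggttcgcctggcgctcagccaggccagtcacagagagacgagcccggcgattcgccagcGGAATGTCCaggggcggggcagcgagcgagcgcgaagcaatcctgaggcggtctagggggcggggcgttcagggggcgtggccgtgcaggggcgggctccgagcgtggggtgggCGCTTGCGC
SDHA, chr5:218070-218319: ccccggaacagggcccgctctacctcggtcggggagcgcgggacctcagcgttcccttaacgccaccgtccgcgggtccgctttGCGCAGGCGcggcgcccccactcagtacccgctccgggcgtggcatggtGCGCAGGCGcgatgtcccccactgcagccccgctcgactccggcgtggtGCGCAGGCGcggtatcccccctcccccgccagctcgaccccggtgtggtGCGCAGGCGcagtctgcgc
Windows from 250 bases before to 50 bases after the start were searched on both strands for GGANNTTCC (NF-kB), GAAANNGAA (interferon regulatory factors) and GCGCANGCG (NRF1). The letters TGANTCA, read by AP-1 factors, were also searched on both strands. So were the letters CCGGAAG, read by ETS factors. The TATA box letters, TATAAA, were searched on the plus strand. No match overlapped another. The ACOD1 window held TATAAA at -33 and -240 from the start and none of the other motifs, and 7.33% of 35116 windows hold a TATAAA. The IDH3A window held a minus-strand NF-kB match, GGAATGTCC as printed, at -123 and an NRF1 match, CGCTTGCGC, at -9. These letters occur in 4.56% and 7.52% of windows. The SDHA window held 4 copies of the NRF1 match GCGCAGGCG, at -166, -117, -68 and -19. Of the other matched members, MDH2 held the ETS letters at -113 and -69 (10.3% of windows hold them), and CS, IDH2, SUCLG1 and FH held none of the motifs. For IDH2 the RefSeq start, 90100621, lies inside the annotated gene, which begins at 90102504 on the minus strand. So do those of SUCLG1, 84459280 against 84460045, and IDH3A, 78149362 against 78131498. Windows at these gene ends were not searched. Base composition differed widely, with 37.7% GC and 3 CpG dinucleotides for ACOD1, 70.0% and 30 for IDH3A, and 74.7% and 41 for SDHA, against medians of 58.7% and 14 over all windows. A match describes letters only, and no binding was measured.

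The deposited values, called normalized counts here, are reads scaled by 1 factor for each library. Libraries held between 18478618 and 30107819 reads in named genes. Normalized totals differed between groups, at 21831254 ± 235113 in DCVC_LPS, 29427331 ± 839114 in LPS, 17774466 ± 305501 in DCVC and 21135356 ± 563705 in Control (mean ± SD, n = 6 each). Scaling every library to the same total, called equal totals below, therefore shifts the median log2 change of all tested genes by -0.48 in LPS minus Control, 0.25 in DCVC minus Control, 0.43 in DCVC_LPS minus LPS and -0.30 in DCVC_LPS minus DCVC. TMM scaling shifts it by -0.11 in LPS minus Control and 0.12 in the interaction. All 10 monocyte and macrophage markers averaged at least 10 normalized counts in every group, apart from CD68 in Control (5.28). Their summed level ran from 39062 to 41099 in DCVC_LPS, 35220.1 to 39384 in LPS, 49420.1 to 54421 in DCVC and 66255 to 78289 in Control. Of 13 markers of other cell types, the summed level ran from 1067 to 1548 in DCVC_LPS, 1487 to 2200.3 in LPS, 2133 to 2959 in DCVC and 4589 to 7475 in Control, of which PECAM1, which monocytes also express, held most. T cell, epithelial, erythroid and hepatocyte markers stayed under 10. From 3 to 5 of the 13 were at 0 in a group. Both sums were lower in each treated group than in Control, but single markers went both ways in some comparisons. By the test given below, 0 of the 10 monocyte and macrophage markers rose and 7 fell in LPS minus Control (all genes 37.8% and 40.6%). In DCVC_LPS minus LPS 3 rose and 4 fell (all genes 33.3% and 39.4%), against 6 and 2 under equal totals (54.7% and 21.8%). In DCVC minus Control 2 rose and 6 fell (all genes 27.5% and 32.2%), against 2 and 5 under equal totals (46.3% and 20.0%). LYZ and CD68 were among those that rose in both DCVC_LPS minus LPS and DCVC minus Control. By the same test the endothelial marker VWF also rose in both, by 1.75 ± 0.12 (adjusted p = 2.19e-12) and 1.44 ± 0.12 (adjusted p = 2.25e-10). CD14, ITGAM, TYROBP and AIF1 fell in both, and so did PECAM1, the other endothelial marker, and the fibroblast marker COL1A1. LYZ averaged 3716 ± 1126 in DCVC_LPS, 1628 ± 456 in LPS, 3223 ± 993 in DCVC and 1455 ± 508 in Control, and VWF averaged 397 ± 61.3 in DCVC_LPS, 116 ± 7.94 in LPS, 531 ± 79.9 in DCVC and 196 ± 31.8 in Control. CD14 averaged 30.4 ± 11.0 in DCVC_LPS, 176 ± 62.0 in LPS, 289 ± 109 in DCVC and 2520 ± 1026 in Control. PECAM1 averaged 861 ± 171 in DCVC_LPS, 1597 ± 323 in LPS, 1995 ± 326 in DCVC and 5637 ± 1098 in Control. These markers were named after their values were seen, and the part of any marker in the results was not tested. In bulk RNA, fewer cells of a type and less RNA per cell cannot be told apart.

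Changes below are log2 changes ± SE of log2(value + 1), with the Benjamini-Hochberg adjusted p over 13900 genes from 1 limma fit of the 24 libraries, and a gene is called to have risen or fallen at an adjusted p under 0.05. With DCVC before LPS, set against LPS alone, 5 members fell (ACOD1, CS, FH, IDH3A and MDH2) and 1 rose (OGDH), where 39.4% of all tested genes fell and 33.3% rose. With LPS after DCVC, set against DCVC alone, 3 rose (ACOD1, IDH3A and CS) and 1 fell (IDH2), where 29.9% of all genes rose and 32.2% fell. With LPS alone, set against Control, 5 rose (ACOD1, CS, IDH3A, FH and MDH2) and 2 fell (IDH2 and OGDH), where 37.8% rose and 40.6% fell. With DCVC alone, set against Control, 3 rose (OGDH, CS and IDH3A) and 1 fell (IDH2), where 27.5% rose and 32.2% fell. The interaction, which is the LPS change after DCVC minus the LPS change without it, was below 0 for 4 members (CS, IDH3A, ACOD1 and FH) and above 0 for 1 (IDH2), where 23.7% of all genes were called below and 22.0% above. With the letter as a block, 3 members rose in DCVC_LPS minus LPS, 2 fell in DCVC_LPS minus DCVC, 3 fell in LPS minus Control and 5 rose in DCVC minus Control. In that fit 2 interactions lay above 0 and 5 below. Of all 13900 genes the same held for 5015, 5078, 5966, 4358, 3917 and 3924. The background shares are so large that a count of calls alone does not set the members apart from other genes. Each of these comparisons shares libraries with the others.

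Libraries whose letters form the pairs A and B, C and D, and E and F resembled each other, so the counts were repeated within each pair. In DCVC_LPS minus LPS, 2, 3 and 1 members rose and 5, 5 and 4 fell in these pairs. Of all 13900 tested genes, 4340, 4786 and 3442 rose and 5490, 5525 and 4567 fell there. In DCVC_LPS minus DCVC, 4, 3 and 3 members rose and 1 fell in each pair (all genes 3808, 4195 and 3398, and 4065, 4231 and 3496). In LPS minus Control, 5, 6 and 4 rose and 2, 3 and 1 fell (all genes 5091, 5182 and 4577, and 5236, 5579 and 4776). In DCVC minus Control, 4, 5 and 3 rose and 1 fell in each (all genes 3496, 3924 and 2294, and 4383, 4734 and 3301). The interaction was above 0 for 2, 2 and 0 members and below 0 for 4, 5 and 3 (all genes 2692, 3640 and 1281, and 3234, 3495 and 1578). Under equal totals 5 members rose and 1 fell in DCVC_LPS minus LPS, where 54.7% of all tested genes rose and 21.8% fell on that scale. In DCVC_LPS minus DCVC 1 rose and 5 fell (all genes 16.2% and 52.8%), in LPS minus Control 3 rose and 5 fell (22.2% and 59.7%), and in DCVC minus Control 7 rose and 0 fell (46.3% and 20.0%). The interaction was above 0 for 2 and below 0 for 4 (33.0% and 15.9%). The direction of a small change can therefore depend on the scale.

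**Figure D1:**
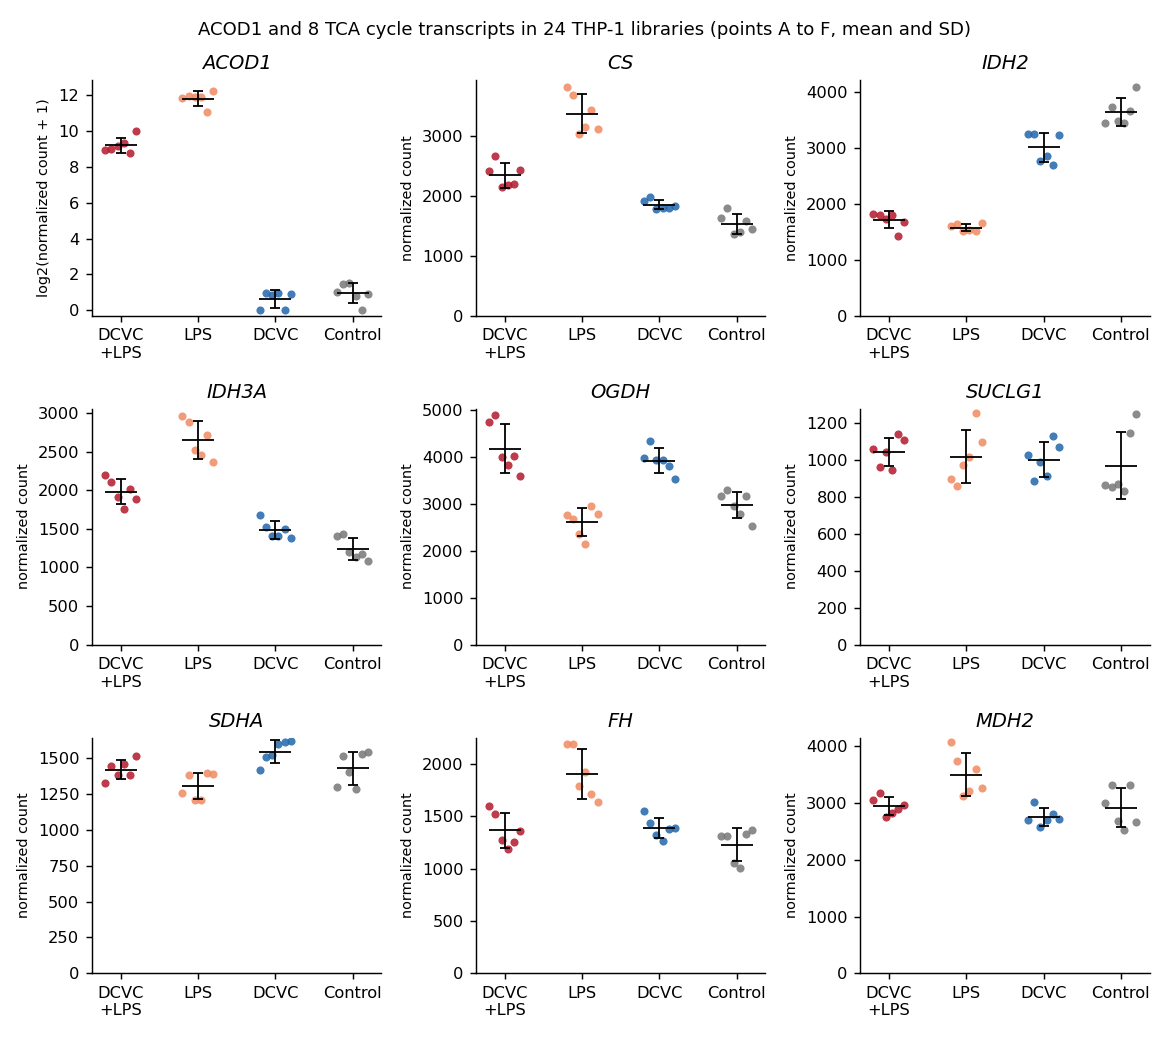
Normalized counts of the 9 members in each library, by group (6 points each, letters A to F from left to right, with mean and SD); ACOD1 is on a log2(value + 1) axis and the others on linear axes from 0. ACOD1 lies near 0 without LPS, IDH2 is lowest in both LPS groups, and CS, IDH3A and FH are highest in LPS alone.

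ACOD1, the aconitate decarboxylase that makes itaconate (chromosome 13, 76948497 to 76958642, plus strand, 7 annotated exons), was all but absent without LPS. Its normalized counts ran from 445 over a median of 540.3 to 1020.2 in DCVC_LPS, from 2119.7 over 3829 to 4873 in LPS, from 0 over 0.851 to 0.977 in DCVC, and from 0 over 0.978 to 1.89 in Control. The 6 libraries of each group without LPS had at most 2 reads each, and every DCVC_LPS library lay below every LPS library. ACOD1 fell by 2.62 ± 0.26 in DCVC_LPS minus LPS (adjusted p = 2.60e-09), to 611 ± 212 normalized counts in DCVC_LPS, against 3711 ± 892 in LPS (mean ± SD, n = 6 each). Within a letter, the DCVC_LPS library held 12.7% to 21.0% of the LPS library's level (median 15.9%). Within the letter pairs the fall was -2.95 for A and B, -2.66 for C and D and -2.25 for E and F, and under equal totals it was -2.19.

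LPS raised ACOD1 both with and without DCVC. Summed over 6 libraries, ACOD1 had 4083 reads in DCVC_LPS, 17542 in LPS, 4 in DCVC and 7 in Control. The ratio of normalized reads was 1044 (95% exact counting interval 407 to 3832) for DCVC_LPS over DCVC and 3462 (1680 to 8612) for LPS over Control, and these intervals cover counting error only. On the log2(value + 1) scale, which understates the change of low genes, the rises were 8.58 ± 0.26 (adjusted p = 7.06e-19) and 10.86 ± 0.26 (adjusted p = 3.04e-21). By size they ranked 4 and 6 among the rises of 13900 genes. The 4 and 7 reads of DCVC and Control do not show a difference at this depth (log2 change -0.34 ± 0.26, adjusted p = 0.269). The interaction of ACOD1 was -2.28 ± 0.37 (adjusted p = 1.99e-05) with limma, but -1.75 with an adjusted p of 0.377 in edgeR's quasi-likelihood test and -1.75 with an adjusted p of 0.120 in DESeq2. Its baseline in this term is the 4 and 7 reads. Within the pair E and F it was -2.25 with an adjusted p of 0.0785. The size of the log2 change between DCVC_LPS and LPS does not use those reads. Its SE and adjusted p do, since limma estimates 1 spread per gene from all 24 libraries.

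Citrate synthase stands at the entry of the cycle. CS, which makes citrate from acetyl-CoA and oxaloacetate (chromosome 12, 56271699 to 56300392, minus strand), ran from 2144 over 2303 to 2668 normalized counts in DCVC_LPS, from 3021 over 3286 to 3809 in LPS, from 1784 over 1809 to 1970.1 in DCVC and from 1355 over 1509.6 to 1798 in Control. The groups did not overlap except DCVC and Control, in which 3 of 6 DCVC libraries exceeded all of Control. CS fell by 0.52 ± 0.07 in DCVC_LPS minus LPS (adjusted p = 5.32e-07) and rose by 0.34 ± 0.07 in DCVC_LPS minus DCVC (adjusted p = 2.57e-04). It rose by 1.14 ± 0.07 in LPS minus Control (adjusted p = 2.89e-13), a mean 2.20 times that of Control, and by 0.27 ± 0.07 in DCVC minus Control (adjusted p = 0.00216). Its interaction was -0.80 ± 0.10 (adjusted p = 8.86e-07). Under equal totals CS changed by -0.09 in DCVC_LPS minus LPS (adjusted p = 0.246) and by 0.04 in DCVC_LPS minus DCVC (adjusted p = 0.639), while its rise with LPS alone, 0.66, its interaction, -0.62, and its rise with DCVC alone, 0.52, were called there too.

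The members among the isocitrate dehydrogenase genes, IDH2 and IDH3A, moved in opposite directions with LPS alone. IDH2, the mitochondrial NADP-dependent enzyme (chromosome 15, 90083045 to 90102504, minus strand), was the member that LPS lowered most. It ran from 1426 over 1772 to 1829 normalized counts in DCVC_LPS, from 1516 over 1571 to 1655 in LPS, from 2696 over 3051 to 3261 in DCVC and from 3445 over 3582 to 4095 in Control. Both groups with LPS lay below both groups without it, with no overlap, and every DCVC library lay below every Control library. IDH2 fell by 0.81 ± 0.06 in DCVC_LPS minus DCVC (adjusted p = 7.38e-11), by 1.21 ± 0.06 in LPS minus Control (adjusted p = 1.10e-14) and by 0.28 ± 0.06 in DCVC minus Control (adjusted p = 7.50e-04). Under equal totals the last of these was -0.03 (adjusted p = 0.741). The interaction was 0.39 ± 0.09 (adjusted p = 0.00114), so the fall was smaller after DCVC. DCVC_LPS minus LPS was 0.12 ± 0.06, with an adjusted p of 0.11, or 0.0474 with the letter as a block and 0.0143 without DCVC_LPS library E. It was 0.55 (adjusted p = 8.86e-08) under equal totals and 0.19 (adjusted p = 0.00866) with TMM.

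IDH3A, the catalytic alpha subunit of the NAD-dependent isocitrate dehydrogenase (chromosome 15, 78131498 to 78171949, plus strand), followed CS. It ran from 1761 over 1968 to 2203 in DCVC_LPS, from 2368 over 2618 to 2967 in LPS, from 1379 over 1457 to 1679.7 in DCVC and from 1080.4 over 1189.8 to 1433 in Control. As for CS, DCVC and Control were the only neighbours in this order that overlapped. IDH3A fell by 0.42 ± 0.08 in DCVC_LPS minus LPS (adjusted p = 2.95e-05), although under equal totals this was 0.01 (adjusted p = 0.90). It rose by 0.42 ± 0.08 in DCVC_LPS minus DCVC (adjusted p = 4.38e-05, against 0.12 and an adjusted p of 0.164 under equal totals), by 1.10 ± 0.08 in LPS minus Control (adjusted p = 1.80e-12) and by 0.26 ± 0.08 in DCVC minus Control (adjusted p = 0.00477). Under equal totals the last 2 rises were 0.62 and 0.51, both called. Its interaction was -0.68 ± 0.11 (adjusted p = 1.66e-05). The other subunits of its enzyme did not rise with LPS alone. IDH3B fell by 0.31 ± 0.05 (adjusted p = 1.21e-05) and IDH3G by 0.27 ± 0.06 (adjusted p = 2.73e-04) in LPS minus Control. IDH3G was chosen after its values were seen. CS overlaps another annotated protein-coding gene on its own strand and an antisense gene, and IDH3A overlaps a long non-coding RNA and the ends of CIB2 and ACSBG1, so the counts of both are uncertain to the extent that reads were shared, which the sources used here do not tell.

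The 2-oxoglutarate dehydrogenase gene stood higher with DCVC both with and without LPS. OGDH, the E1 subunit of that complex (chromosome 7, 44606572 to 44709066, plus strand), ran from 3591 over 3999 to 4889 in DCVC_LPS, from 2136 over 2718 to 2951 in LPS, from 3536 over 3928 to 4342 in DCVC and from 2531 over 3051 to 3287 in Control. Every library with DCVC lay above every library without it, with or without LPS. OGDH rose by 0.68 ± 0.08 in DCVC_LPS minus LPS (adjusted p = 1.24e-07) and by 0.40 ± 0.08 in DCVC minus Control (adjusted p = 2.83e-04), and under equal totals by 1.11 and 0.65. In LPS minus Control it fell by 0.19 ± 0.08 (adjusted p = 0.0397). That call was lost on leaving out Control library A, B, C or E or LPS library C or D, with adjusted p from 0.0529 to 0.129, and the change was 0.02 within the pair E and F, but it was -0.67 (adjusted p = 1.32e-07) under equal totals and -0.30 (adjusted p = 0.00195) with TMM. DCVC_LPS minus DCVC was 0.08 ± 0.08 (adjusted p = 0.394), and under equal totals -0.21 (adjusted p = 0.0341). The interaction was 0.28 ± 0.12, with an adjusted p of 0.0599, or 0.0110 with the letter as a block. It was 0.46 (adjusted p = 0.00342) under equal totals and 0.40 (adjusted p = 0.00734) with TMM.

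SUCLG1, the alpha subunit shared by both succinyl-CoA ligases (chromosome 2, 84423523 to 84460045, minus strand), passed no test on the deposited scale. It ran from 945 over 1049 to 1137 in DCVC_LPS, from 859 over 994 to 1252 in LPS, from 882 over 1006 to 1125 in DCVC and from 830.4 over 866 to 1245 in Control. All 4 groups overlapped, and libraries E and F were the highest of each group. The log2 changes lay between 0.04 and 0.08 in the 4 pairwise comparisons, each with an SE of 0.10. At this spread no difference was detected on the deposited scale. Under equal totals SUCLG1 changed by 0.47 in DCVC_LPS minus LPS (adjusted p = 4.00e-04), -0.24 in DCVC_LPS minus DCVC (adjusted p = 0.0594), -0.40 in LPS minus Control (adjusted p = 0.00184) and 0.31 in DCVC minus Control (adjusted p = 0.0155).

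SDHA, the flavoprotein subunit of succinate dehydrogenase, the enzyme that itaconate inhibits (chromosome 5, 218241 to 256700, plus strand), varied least of the members on the deposited scale. It ran from 1327 over 1411 to 1509.9 in DCVC_LPS, from 1208 over 1317 to 1394 in LPS, from 1413 over 1555 to 1613 in DCVC and from 1284 over 1454 to 1538 in Control. Neighbouring groups overlapped throughout. The changes were 0.12 in DCVC_LPS minus LPS, -0.12 in DCVC_LPS minus DCVC, -0.13 in LPS minus Control and 0.12 in DCVC minus Control, each ± 0.06, with adjusted p of 0.0696, 0.0708, 0.0519 and 0.0900. With the letter as a block all 4 were called, with adjusted p of 0.0186, 0.0180, 0.0126 and 0.0256. Under equal totals they were larger and all called, at 0.55, -0.42, -0.60 and 0.37 (adjusted p = 5.32e-08, 4.93e-06, 7.53e-09 and 3.62e-05). With TMM the changes in DCVC_LPS minus LPS, 0.20, and in LPS minus Control, -0.24, were called (adjusted p = 0.00381 and 6.96e-04). The interaction was 0.00 ± 0.08 (adjusted p = 0.979). Its pseudogenes SDHAP1, SDHAP2 and SDHAP3 averaged 193, 0 and 19.0 normalized counts in DCVC_LPS, and how reads shared with them were counted is not known.

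On the deposited scale the genes of the last steps of the cycle, FH and MDH2, averaged highest with LPS alone. As CPM, the share of reads in named genes, they averaged highest with DCVC alone, FH at 78.2 ± 5.23 CPM in DCVC and 64.7 ± 7.21 in LPS, and MDH2 at 155 ± 8.13 in DCVC and 119 ± 13.1 in LPS, its lowest group. FH, fumarase (chromosome 1, 241497603 to 241519761, minus strand), ran from 1185 over 1316 to 1602 in DCVC_LPS, from 1636 over 1856 to 2194 in LPS, from 1263 over 1383 to 1552 in DCVC and from 1008 over 1309 to 1374 in Control. Every LPS library lay above every library of the other groups. FH fell by 0.48 ± 0.09 in DCVC_LPS minus LPS (adjusted p = 5.53e-05) and rose by 0.63 ± 0.09 in LPS minus Control (adjusted p = 9.59e-07), against -0.05 (adjusted p = 0.632) and 0.16 (adjusted p = 0.118) under equal totals. DCVC_LPS minus DCVC was -0.03 ± 0.09 (adjusted p = 0.792), and the interaction was -0.66 ± 0.13 (adjusted p = 2.04e-04). DCVC minus Control was 0.18 ± 0.09, with an adjusted p of 0.0897, or 0.0167 with the letter as a block. Under equal totals FH changed by -0.33 in DCVC_LPS minus DCVC (adjusted p = 0.00286) and by 0.43 in DCVC minus Control (adjusted p = 2.19e-04).

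MDH2, the mitochondrial malate dehydrogenase that regenerates oxaloacetate (chromosome 7, 76048051 to 76067508, plus strand), ran from 2755 over 2931 to 3177 in DCVC_LPS, from 3116 over 3430.2 to 4073 in LPS, from 2572 over 2713 to 3020.1 in DCVC and from 2521 over 2842 to 3321 in Control. On the deposited scale LPS was the highest group and lay wholly above DCVC, but its range overlapped those of DCVC_LPS and Control. MDH2 fell by 0.24 ± 0.07 in DCVC_LPS minus LPS (adjusted p = 0.00434) and rose by 0.27 ± 0.07 in LPS minus Control (adjusted p = 0.00197), and both signs turned under equal totals, to 0.19 and -0.21. The changes in DCVC_LPS minus DCVC and DCVC minus Control were 0.10 and -0.08, each ± 0.07 (adjusted p = 0.253 and 0.380), and under equal totals -0.20 and 0.17 (adjusted p = 0.0187 and 0.0400). Its interaction was -0.17 ± 0.10, with an adjusted p of 0.190, or 0.0427 with the letter as a block.

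Over the 9 members, the 2 groups compared did not overlap for 5 in DCVC_LPS minus LPS, 4 in DCVC_LPS minus DCVC, 5 in LPS minus Control and 2 in DCVC minus Control. Over all tested genes this held for 51.7%, 45.1%, 56.8% and 36.5%.

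**Figure D2:**
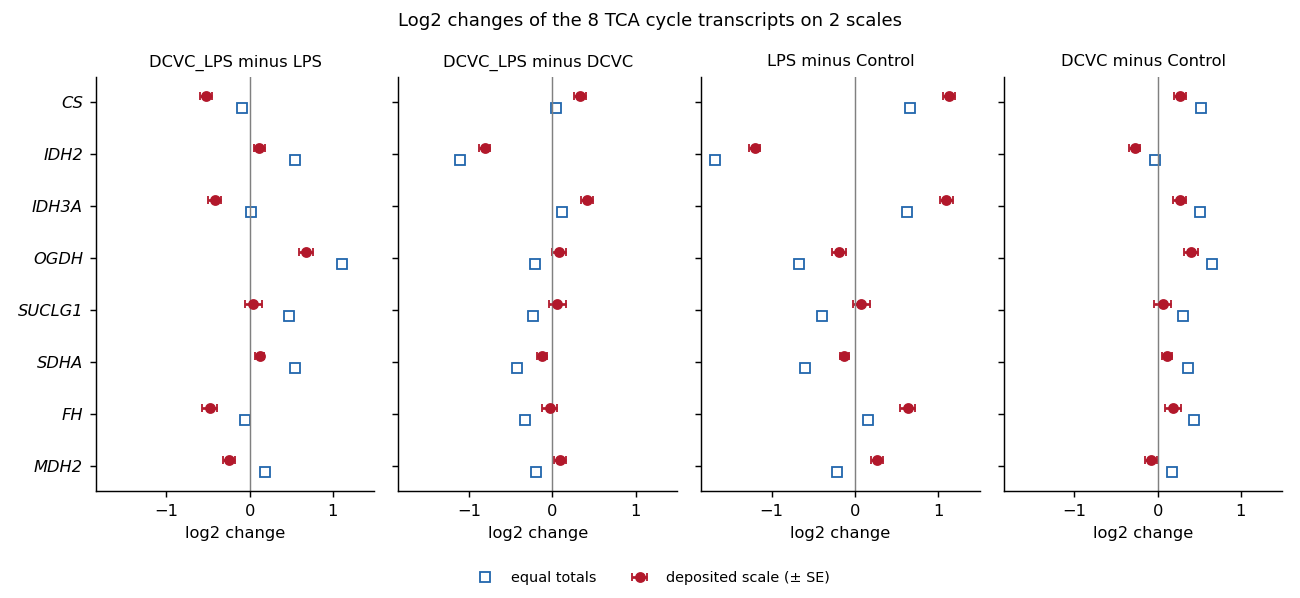
Log2 changes of the 8 TCA cycle members in 4 comparisons (x axis) on the deposited scale (filled, ± SE) and with libraries scaled to equal totals (open squares); ACOD1 is left out for its size. The open squares are shifted by about the same amount for all members of a comparison, to the right in DCVC_LPS minus LPS and DCVC minus Control and to the left where LPS is the added treatment.

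Scaling a library by 1 factor moves nearly all genes by the same amount, so distances from the median of all tested genes are set by arithmetic to be much the same on either scale, and are given on the deposited one. In DCVC_LPS minus LPS, OGDH stood 0.75 above that median, SDHA, IDH2 and SUCLG1 stood 0.19, 0.19 and 0.11 above it, and MDH2, IDH3A, FH, CS and ACOD1 stood at -0.17, -0.35, -0.41, -0.45 and -2.55. In DCVC_LPS minus DCVC, IDH3A and CS stood 0.45 and 0.37 above the median and IDH2 at -0.78. In LPS minus Control, CS, IDH3A, FH and MDH2 stood 1.17, 1.13, 0.67 and 0.30 above it, and IDH2 at -1.17. In DCVC minus Control, OGDH, CS, IDH3A and FH stood 0.43, 0.30, 0.29 and 0.21 above it, and IDH2 at -0.25. ACOD1, with its few reads in these groups, stood at -0.31 there and at -0.48 under equal totals.

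**Figure D3:**
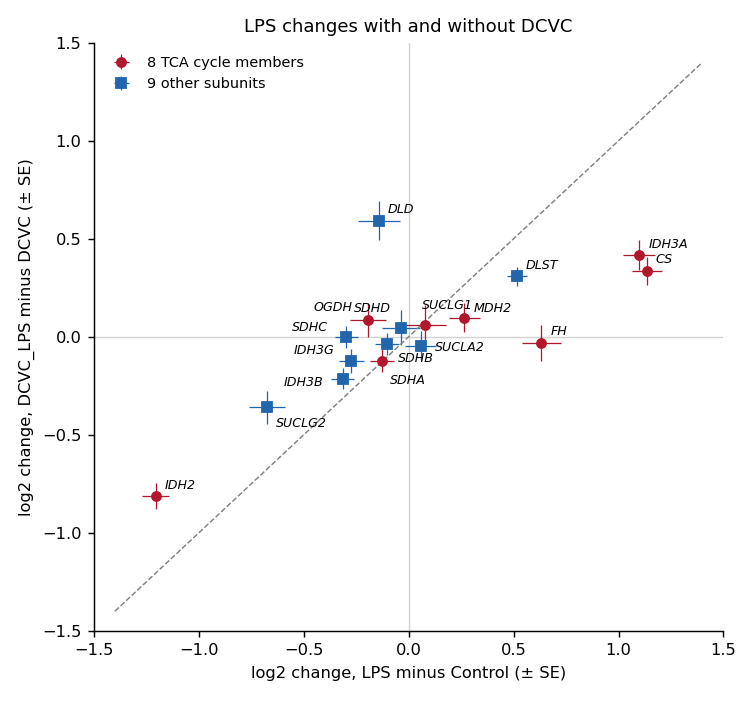
LPS changes of the 8 TCA cycle members (circles) and 9 other subunits of the cycle's enzymes (squares), without DCVC on the x axis and after DCVC on the y axis, as log2 changes ± SE on the deposited scale; the dashed line marks equal changes and ACOD1 lies outside the axes at 10.86 and 8.58. CS, IDH3A and FH lie to the right of the line, IDH2 lies above it near the lower left, and DLD lies highest.

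Ratios between members within a library do not depend on the scale. They were chosen after the values were seen, are taken on normalized counts per kb of annotated exon, and were compared with 12 exact two-sided permutation tests on the log2 ratio, whose smallest possible p of 0.00216 adjusts to 0.00289. The ratio of IDH2 to IDH3A, the NADP-dependent isocitrate dehydrogenase over the alpha subunit of the NAD-dependent one, was 2.11 ± 0.26 in DCVC_LPS, 1.45 ± 0.14 in LPS, 4.94 ± 0.46 in DCVC and 7.23 ± 1.15 in Control (mean ± SD, n = 6 each). No 2 groups overlapped, and the exact permutation test gave an adjusted p of 0.00289 in each of the 4 comparisons. LPS divided this ratio by 2.35 in cells given DCVC and by 4.94 in cells without it. On the deposited scale the other subunits, IDH3B and IDH3G, moved against IDH3A. Both fell in LPS minus Control and rose in DCVC_LPS minus LPS. Ratios to them were not tested, so the ratio to IDH3A does not stand for the whole enzyme. The ratio of CS to OGDH was 0.459 ± 0.047 in DCVC_LPS and 1.06 ± 0.11 in LPS, with all 6 DCVC_LPS libraries below all LPS libraries (exact permutation test, adjusted p = 0.00289). It was 0.384 ± 0.019 in DCVC and 0.420 ± 0.032 in Control, which overlapped (exact permutation test, adjusted p = 0.0449), with DCVC lower in 6 of 6 letters. The ratio of SDHA to CS was 0.465 ± 0.040 in DCVC_LPS, 0.298 ± 0.029 in LPS, 0.639 ± 0.052 in DCVC and 0.715 ± 0.081 in Control, and the ranges of DCVC and Control overlapped (exact permutation test, adjusted p = 0.0866). Within a letter DCVC was lower than Control in 6 of 6 pairs, by 0.16 ± 0.04 on the log2 scale, and the exact two-sided sign-flip test on the paired letters gave an adjusted p of 0.0312. That is the smallest p this test can give, and it was reached in all 12 comparisons, each with 6 of 6 letters in 1 direction. The paired test was added after the values were seen. It takes the 6 letters as independent, though the letters within A and B, C and D, and E and F resembled each other. Its p can therefore be too small.

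**Figure D4:**
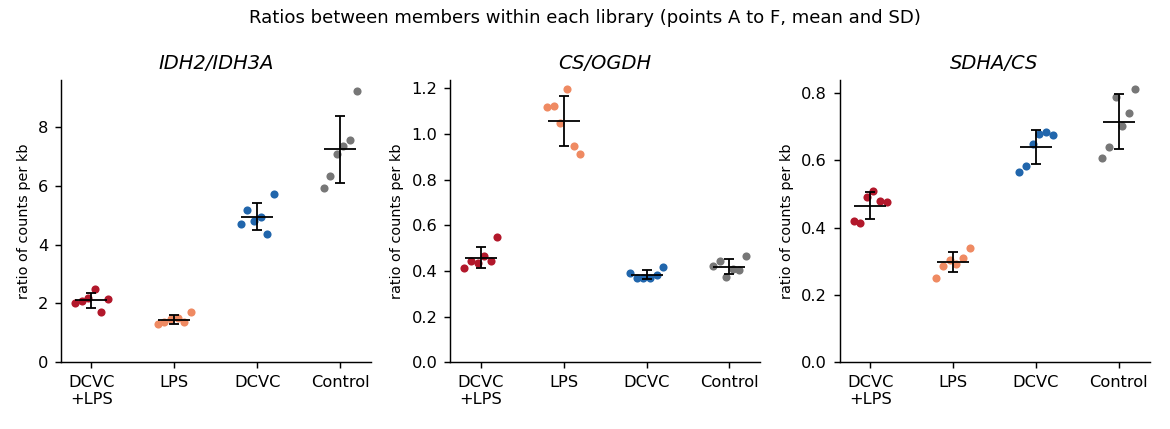
Ratios of normalized counts per kb within each library, by group (6 points each, letters A to F from left to right, with mean and SD). IDH2 over IDH3A does not overlap between any groups, CS over OGDH is near 1.06 in LPS and under 0.55 in all libraries of the other groups, and SDHA over CS is lowest in LPS.

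Levels per kb of annotated exon put the members in a different order in each group. ACOD1 was the highest of the 9 in LPS, at 1704 ± 410 normalized counts per kb, stood at rank 7 in DCVC_LPS, at 281 ± 97.4, and at rank 9 in DCVC and Control, at 0.279 and 0.484. IDH2 was the highest in DCVC (1071 ± 93.8) and Control (1296 ± 89.1), and stood at rank 4 in DCVC_LPS (609.8 ± 54.2) and LPS (561 ± 21.6). MDH2 was the highest in DCVC_LPS, at 809 ± 42.6, but OGDH at 801 ± 99.7 lay within its spread. SDHA was the lowest in DCVC_LPS and LPS and the lowest after ACOD1 in the other groups, at 156 to 184. The exon lengths are unions over all annotated transcripts, so these levels are too low for genes with many transcripts.

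Across the 24 libraries, the profiles most like those of the members were found by the root mean square difference of centred log2 values, as a description. For ACOD1 the nearest were CD80, a costimulatory ligand (0.73), CCL3L3, a chemokine with near-identical copies and hence uncertain (0.86), and LAMP3, a marker of mature dendritic cells (0.97). CD80 averaged 565 normalized counts in DCVC_LPS, 2496 in LPS, 1.64 in DCVC and 1.90 in Control. For CS the nearest were DNAJA3, a mitochondrial chaperone (0.083), TBL3 (0.086) and the member IDH3A (0.090). For IDH3A they were SBDS, a ribosome maturation factor (0.069), METTL2B (0.085) and SCO1, a copper chaperone of cytochrome c oxidase (0.089). For IDH2 they were LSM4 (0.120), TADA3 (0.126) and ECH1, a peroxisomal and mitochondrial enoyl-CoA isomerase (0.129). For OGDH they were SMAP1, FCF1 and RCE1 (0.111 to 0.114), and for FH the splicing factors SF3A3 and SF3A1 and the prohibitin PHB (0.086 to 0.120). SUCLG1 was nearest to GNAS, PPHLN1 and CHCHD7 (0.125 to 0.130), SDHA to USP19, STK25 and HADHB (0.091 to 0.098) and MDH2 to HDLBP, SEC16A and UBA1 (0.084 to 0.10). The spread of SUCLG1 and SDHA themselves about their own means was 0.172 and 0.120 by the same measure, not far above these distances.

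For the lists from here on, 33.3% of all genes rose and 39.4% fell in DCVC_LPS minus LPS, and 37.8% and 40.6% in LPS minus Control. These shares were 29.9% and 32.2% in DCVC_LPS minus DCVC, and 27.5% and 32.2% in DCVC minus Control. Of the 9 other subunits of the cycle's enzymes examined, 5 rose and 1 fell in DCVC_LPS minus LPS, with a median change of 0.22, where the median of all genes was -0.07. Under equal totals all 9 rose, where 54.7% of all genes did. DLD, the E3 subunit shared by the 2-oxoacid dehydrogenases, averaged 3831 ± 267 in DCVC_LPS and 1597 ± 209 in LPS (1.27 ± 0.10, adjusted p = 4.27e-11), and IDH3B rose by 0.46 ± 0.05 (adjusted p = 6.13e-08). DLST, the E2 subunit of 2-oxoglutarate dehydrogenase, fell by 0.32 ± 0.05 (adjusted p = 2.16e-06), a sign that turned under equal totals. So on the deposited scale DLST moved against the E1 subunit OGDH and the E3 subunit DLD, which were both higher, while under equal totals DLST, OGDH and DLD all rose. Of the succinate dehydrogenase subunits, SDHC rose by 0.43 ± 0.06 (adjusted p = 2.20e-07) and SDHB by 0.22 ± 0.06 (adjusted p = 0.00104), and SDHD changed by 0.08 ± 0.09 (adjusted p = 0.418). The beta subunits that pair with SUCLG1, SUCLA2 and SUCLG2, changed by 0.09 ± 0.07 and -0.05 ± 0.08 and passed no test there.

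In LPS minus Control, 1 of these 9 subunits rose and 4 fell, with a median of -0.14 (all genes -0.03), and none rose and 8 fell under equal totals, where 59.7% of all genes fell. DLST rose by 0.52 ± 0.05 (adjusted p = 6.03e-10), against 0.04 (adjusted p = 0.446) under equal totals. SUCLG2, the beta subunit of the GTP-forming ligase, fell by 0.67 ± 0.08 (adjusted p = 8.37e-08) and SDHC by 0.30 ± 0.06 (adjusted p = 3.12e-05), while SUCLA2, SDHB and SDHD changed by 0.06, -0.10 and -0.04 and passed no test. In DCVC_LPS minus DCVC, 2 rose and 2 fell, with a median of -0.04 (all genes -0.03), and 1 rose and 7 fell under equal totals (all genes 16.2% and 52.8%). In DCVC minus Control, 5 rose and 2 fell, with a median of 0.13 (all genes -0.03), and 8 rose and none fell under equal totals (46.3% of all genes rose). The interaction was above 0 for DLD (0.74 ± 0.14, adjusted p = 1.55e-04), SDHC (0.30 ± 0.08, adjusted p = 0.00327) and SUCLG2 (0.32 ± 0.12, adjusted p = 0.0334) and below 0 for DLST (-0.21 ± 0.07, adjusted p = 0.0169; -0.03 and 0.768 under equal totals).

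The 7 assembly factors of succinate dehydrogenase and enzymes of lipoylation, which attach the lipoyl group of the 2-oxoacid dehydrogenases, mostly fell with LPS alone. Of these, 1 rose and 6 fell in LPS minus Control, with a median of -0.76 (all genes -0.03). SDHAF3 averaged 15.5 ± 4.87 in LPS and 48.2 ± 8.04 in Control (-1.62 ± 0.19, adjusted p = 2.73e-08), and SDHAF4 fell by 0.76 ± 0.09 (adjusted p = 5.99e-08). SDHAF2, which rose by 0.20 ± 0.09 (adjusted p = 0.0365), turned its sign under equal totals. In DCVC_LPS minus LPS, 4 rose and none fell, with a median of 0.65 (all genes -0.07), and all 7 rose under equal totals, where 54.7% of all genes did. There LIAS, the lipoyl synthase, averaged 130.1 ± 8.67 in DCVC_LPS and 61.0 ± 13.0 in LPS (1.10 ± 0.12, adjusted p = 8.53e-09), and SDHAF3 rose by 1.77 ± 0.19 (adjusted p = 1.05e-08). In DCVC_LPS minus DCVC SDHAF2 rose and 4 fell, and in DCVC minus Control 3 rose and none fell (1 fell with the letter as a block).

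The 13 genes of pyruvate entry moved both ways. In DCVC_LPS minus LPS 4 rose and 7 fell (median -0.32, all genes -0.07), and in LPS minus Control 5 rose and 6 fell (median -0.05, all genes -0.03). Under equal totals these counts were 5 and 5 (all genes 54.7% and 21.8%), and 2 and 8 (all genes 22.2% and 59.7%). PDHX and PDHB, both subunits of the pyruvate dehydrogenase complex, went opposite ways. PDHX averaged 1678 ± 143 in DCVC_LPS, 2876 ± 117 in LPS, 871 ± 62.0 in DCVC and 774 ± 24.4 in Control, a rise of 1.89 ± 0.06 in LPS minus Control (adjusted p = 1.34e-19). PDHB averaged 771 ± 87.4 in DCVC_LPS, 410.0 ± 41.5 in LPS, 1265 ± 106 in DCVC and 1343 ± 123 in Control, a fall of 1.71 ± 0.08 in LPS minus Control (adjusted p = 1.46e-15). Its interaction was 0.99 ± 0.12 (adjusted p = 3.04e-07) and that of PDHX -0.95 ± 0.08 (adjusted p = 1.70e-09). PC, pyruvate carboxylase, which makes oxaloacetate from pyruvate, fell by 1.63 ± 0.11 in DCVC_LPS minus LPS (adjusted p = 2.76e-12) and by 2.23 ± 0.11 in DCVC minus Control (adjusted p = 4.83e-14). Its mean was 310.1 ± 31.1 in DCVC and 1469.8 ± 220.1 in Control. PDP1, a phosphatase that activates the complex, fell by 1.54 ± 0.10 in DCVC_LPS minus LPS (adjusted p = 2.46e-12). PDK4, a kinase that inhibits it, averaged 5.74 ± 1.83 in DCVC_LPS, 9.06 ± 6.04 in LPS, 213 ± 69.6 in DCVC and 325 ± 154 in Control.

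Of 14 carriers of cycle intermediates and cytosolic or malic-enzyme counterparts, 4 rose and 7 fell in DCVC_LPS minus LPS (median -0.13), and 6 rose and 6 fell in LPS minus Control (median 0.09). Under equal totals these counts were 7 and 2 (all genes 54.7% and 21.8%), and 2 and 9 (all genes 22.2% and 59.7%). IDH1, the cytosolic and peroxisomal NADP-dependent isocitrate dehydrogenase, averaged 517 ± 102 in DCVC_LPS, 109 ± 36.3 in LPS, 1208 ± 329 in DCVC and 966 ± 294 in Control. It fell by 3.14 ± 0.21 in LPS minus Control (adjusted p = 5.53e-13), rose by 2.26 ± 0.21 in DCVC_LPS minus LPS (adjusted p = 5.69e-10) and had an interaction of 1.93 ± 0.29 (adjusted p = 8.83e-06). Its fall with LPS thus had the sign of that of its mitochondrial relative IDH2. SLC25A12, an aspartate-glutamate carrier, fell by 1.22 ± 0.16 in DCVC_LPS minus LPS (adjusted p = 3.50e-07). In DCVC minus Control 5 rose and 5 fell, among them ME1, the cytosolic malic enzyme (1.13 ± 0.19, adjusted p = 1.35e-05), and GOT2, the mitochondrial aspartate aminotransferase, which is also known as a beta-lyase of cysteine conjugates (0.39 ± 0.07, adjusted p = 4.43e-05). Of 7 genes of glutamine and GABA entry, 1 rose and 3 fell in DCVC_LPS minus LPS (median -0.13) and 1 rose and 4 fell in LPS minus Control (median -0.71). On the equal-totals scale they were 4 and 1 (all genes 54.7% and 21.8%), and none and 5 (all genes 22.2% and 59.7%). With the letter as a block, 2 rose in LPS minus Control. GPT2, the mitochondrial alanine aminotransferase, averaged 50.5 ± 10.3 in DCVC_LPS, 73.8 ± 17.9 in LPS, 189.7 ± 36.7 in DCVC and 318 ± 46.8 in Control, and fell by 2.11 ± 0.16 in LPS minus Control (adjusted p = 9.75e-12).

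**Figure D5:**
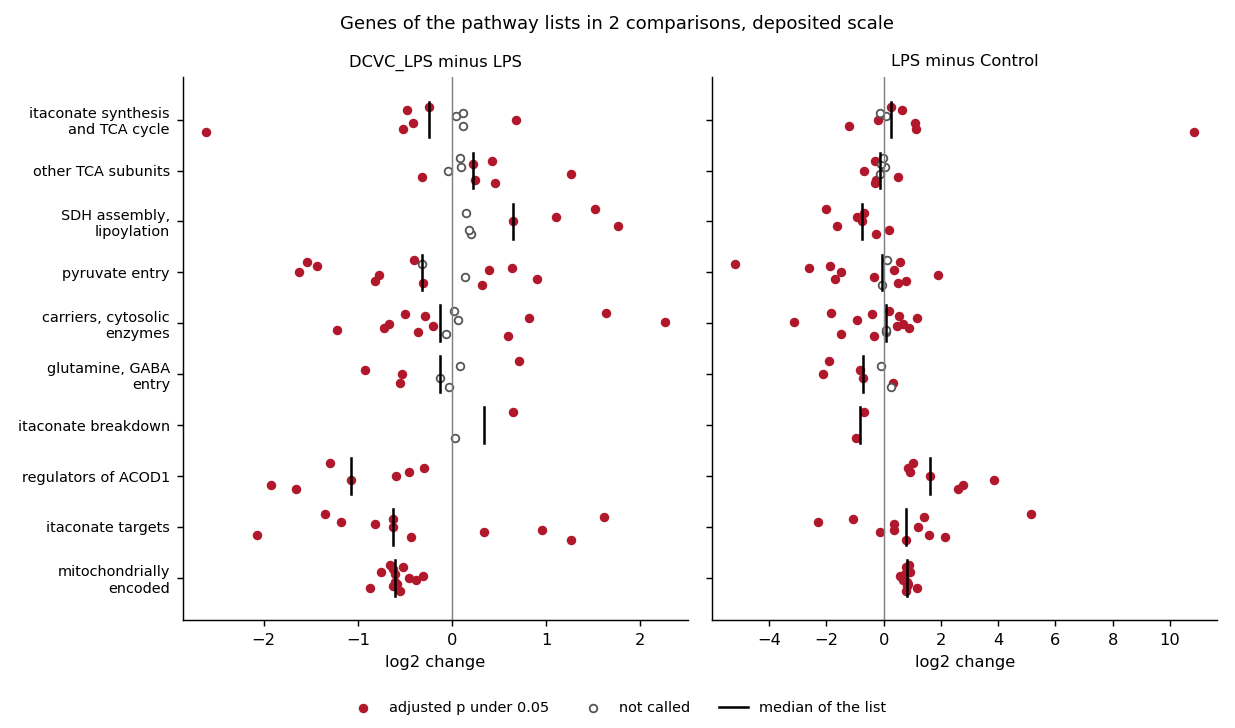
Log2 changes of every tested gene of 10 lists in DCVC_LPS minus LPS and in LPS minus Control, on the deposited scale, with calls filled and the list median as a bar; the x axes differ. All 7 regulators of ACOD1 lie right of 0 with LPS and left of 0 with DCVC before LPS, and 3 lists (other TCA subunits, assembly and lipoylation, itaconate breakdown) have a median right of 0 in DCVC_LPS minus LPS and left of 0 in LPS minus Control. Of all tested genes 37.8% rose in LPS minus Control and 39.4% fell in DCVC_LPS minus LPS.

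The 7 genes examined that are known to act upstream of ACOD1 transcription, NF-kB subunits, interferon factors and receptors and TFEB, all fell in DCVC_LPS minus LPS (median -1.07) and all rose in LPS minus Control (median 1.64) and in DCVC_LPS minus DCVC (median 0.98). Of all genes 39.4% fell in the first of these comparisons, and 37.8% and 29.9% rose in the others. The medians of all genes were -0.07, -0.03 and -0.03. Under equal totals 4 of the 7 falls were called, where 21.8% of all genes fell, and IFNAR1 changed sign. IRF1, an interferon regulatory factor, averaged 2567 ± 826 in DCVC_LPS, 7873 ± 1593 in LPS, 1252 ± 136 in DCVC and 1283 ± 43.8 in Control, and fell by 1.65 ± 0.16 in DCVC_LPS minus LPS (adjusted p = 2.08e-09). IFNAR2, a chain of the type I interferon receptor, fell by 1.30 ± 0.07 (adjusted p = 6.55e-14) and NFKB1 by 1.07 ± 0.08 (adjusted p = 6.90e-12) in the same comparison. The interaction of IRF1 was -1.61 ± 0.23 (adjusted p = 3.98e-06). In DCVC minus Control none rose (1 with the letter as a block) and 5 fell (all genes 27.5% and 32.2%), with IFNAR2 at -1.19 ± 0.07 (adjusted p = 1.07e-12) and IRF8 at -1.52 ± 0.15 (adjusted p = 9.49e-09). These genes were chosen with results known, and whether they bear on ACOD1 here was not tested.

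Of the 3 genes of itaconate breakdown, AUH, a hydratase, and CLYBL, the citramalyl-CoA lyase, were tested, and SUGCT, a CoA transferase, was not, at 4.41 to 11.2 normalized counts on average per group. AUH fell by 0.95 ± 0.11 and CLYBL by 0.68 ± 0.15 in LPS minus Control (adjusted p = 1.52e-08 and 2.87e-04), and both fell in DCVC_LPS minus DCVC. CLYBL was higher in DCVC_LPS than in LPS by 0.65 ± 0.15 (adjusted p = 5.73e-04), and AUH changed by 0.03 ± 0.11 (adjusted p = 0.795). Of 11 genes whose proteins itaconate or its derivatives are known to modify, inhibit or act through, 4 rose and 7 fell in DCVC_LPS minus LPS (all genes 33.3% and 39.4%), and 8 rose and 3 fell in LPS minus Control (all genes 37.8% and 40.6%). Under equal totals these counts were 4 and 5 (all genes 54.7% and 21.8%), and 6 and 3 (all genes 22.2% and 59.7%). KEAP1, the repressor of NRF2, averaged 7361 ± 428 in DCVC_LPS, 3049 ± 81.6 in LPS, 3481 ± 215 in DCVC and 1768 ± 135 in Control, and rose by 1.27 ± 0.05 in DCVC_LPS minus LPS (adjusted p = 8.34e-16). NLRP3, an inflammasome sensor, fell by 2.07 ± 0.10 there (adjusted p = 7.36e-15). NFKBIZ, which encodes IκBζ, rose by 5.15 ± 0.12 in LPS minus Control (adjusted p = 2.64e-21).

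The 8 regulators of mitochondrial genes and hypoxia included 7 that rose and 1 that fell in LPS minus Control, and 2 that rose and 5 that fell in DCVC_LPS minus LPS, and under equal totals 4 rose and 3 fell in each. Of all genes 37.8% rose and 40.6% fell in LPS minus Control, and 33.3% and 39.4% in DCVC_LPS minus LPS. Under equal totals these shares were 22.2% and 59.7%, and 54.7% and 21.8%. HIF1A, the oxygen-regulated factor known to be stabilised by succinate, rose by 2.61 ± 0.09 with LPS alone (adjusted p = 2.21e-18) and fell by 0.91 ± 0.09 in DCVC_LPS minus LPS (adjusted p = 2.73e-09). NRF1, whose motif the SDHA and IDH3A windows hold, changed by -0.20 ± 0.08 in DCVC_LPS minus LPS (adjusted p = 0.0279), a sign that turned under equal totals, and it is named here after its values were seen. The 13 protein-coding genes of the mitochondrial genome all fell in DCVC_LPS minus LPS (median -0.60, all genes -0.07) and all rose in LPS minus Control (median 0.81, all genes -0.03). Of these, 2 falls and 12 rises were called under equal totals, where 21.8% of all genes fell and 22.2% rose in the same comparisons. MT-ND5 and MT-CO1 changed sign there in DCVC_LPS minus LPS. In DCVC_LPS minus DCVC all 13 rose and in DCVC minus Control 4 fell (all genes 29.9% and 32.2%), against 1 and none under equal totals (all genes 16.2% and 20.0%). With the letter as a block, 11 fell in DCVC minus Control, as did 5105 of all 13900 genes.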

How the data were processed

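Poly-A RNA of 24 libraries, 6 in each of 4 groups set by the labels, was analysed. The authors deposited normalized counts per gene, a signal in which each library's read counts are divided by 1 factor. Per the submitters' processing notes, the build was hg38 and the tools included STAR, featureCounts 1.6.1 for counting and, in R 3.6.0, DESeq2 1.24.0, with FastQC 0.11.5 and MultiQC 0.9 for quality. For the annotation, strand and multiply mapped reads, no setting is stated there. All values (100%) were whole multiples of 1 read within 0.1 read, so reads were recovered. They came to 18478618 to 30107819 per library in 38735 named genes. Of 58381 entries, 19595 without a gene name (0.986% of the summed values) were left out, and 51 symbols were summed over their entries.

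Genes with a mean of at least 10 (13900) were tested on log2(value + 1) with limma 3.58.1 (R 4.3.3, trended empirical Bayes, 1 fit of all groups, Benjamini-Hochberg adjustment, two-sided), after a check on simulated data. Alternatives used equal totals, TMM, edgeR 4.0.16 and DESeq2 1.42.0 on recovered reads, other pseudocounts (0.5 and 10) and filters, the groups compared alone, the letter as a block, letter pairs, and each library left out. Ratios between members were compared with exact permutation tests over libraries and, added after the data were seen, over paired letters. CPM were computed from the recovered reads. Positions and exon lengths are from GENCODE 29 (GRCh38). The members and lists were chosen with earlier results of these data known. Named list genes are those first by adjusted p in a comparison, at most 2 in each direction, and IDH1, SUCLA2, SUCLG2, SDHB, SDHC, SDHD, IRF1, CLYBL, SUGCT and AUH always. The letters A to F were taken to pair the libraries. All 36 correlations of deviations between same-letter libraries of different groups were over 0.1 (0.134 to 0.539, median 0.33). So were 35 of 36 with the other letter of the pairs A and B, C and D, and E and F (median 0.286). None of the 144 correlations across those pairs was. The correlations thus set the letter pairs apart, and scarcely the single letters. Some genes of the lists and comparisons are not reported here.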

Additional observations from a re-analysis of the deposited data

Results flagged for a closer look

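Among 34 tests for a library far from the rest of its group, 2 passed, where chance passes about 1 in 20. ACOD1 in DCVC_LPS was highest in library F, at 1020.2 normalized counts, with the next library at 635. IDH2 in DCVC_LPS was lowest in library E, at 1426, with the next library at 1686.

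By the interaction term of the limma fit, 23.7% of all tested genes were called below 0 and 22.0% above 0. By this term the change with LPS differed between cells with and without DCVC for 5 of the 9 members. It was lower after DCVC for ACOD1 by -2.28 ± 0.37 (adjusted p = 1.99e-05), for CS by -0.80 ± 0.10 (adjusted p = 8.86e-07), for IDH3A by -0.68 ± 0.11 (adjusted p = 1.66e-05) and for FH by -0.66 ± 0.13 (adjusted p = 2.04e-04), and less negative after DCVC for IDH2, by 0.39 ± 0.09 (adjusted p = 0.00114). The ACOD1 term was not called by edgeR or DESeq2.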

How the results depend on the processing

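Scaling changed more calls than the other choices listed in the processing section. Under equal totals 3 members rose and 5 fell in LPS minus Control, 7 and 0 in DCVC minus Control, 5 and 1 in DCVC_LPS minus LPS, and 1 and 5 in DCVC_LPS minus DCVC, and 2 interactions lay above 0. The shares of all genes called on that scale stand with the same counts earlier in the text. The sign turned there for SUCLG1 (-0.40) and MDH2 (-0.21) in LPS minus Control, MDH2 (0.17) in DCVC minus Control, IDH3A (0.011) and MDH2 (0.19) in DCVC_LPS minus LPS, OGDH (-0.21), SUCLG1 (-0.24) and MDH2 (-0.20) in DCVC_LPS minus DCVC, and SUCLG1 (0.16) and MDH2 (0.013) in the interaction. With TMM and edgeR, SUCLG1 turned to -0.032 and -0.039 in LPS minus Control and to 0.10 and 0.11 in the interaction. In DCVC_LPS minus LPS 3 members rose with TMM, edgeR, the replicate block and letters C and D, and 2 with DESeq2 and letters A and B. The interaction was above 0 for 2 members with TMM, edgeR, DESeq2, the replicate block and letters A and B or C and D, and for 0 with letters E and F. With the replicate block, 5 members rose in DCVC minus Control and 2 fell in DCVC_LPS minus DCVC, as they did with letters C and D (5) and with only the groups compared (2). In LPS minus Control 1 member fell with no filter, with only the groups compared and with letters E and F. The block changed no call of a member other than those given beside it.

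ACOD1 changed by -0.74 in DCVC minus Control with letters A and B (limma, adjusted p = 0.0416). That call rests on 0 and 1 reads in DCVC against 1 and 2 in Control, too few to show a difference. The interaction of ACOD1 was -1.75 with edgeR (adjusted p = 0.377), -1.75 with DESeq2 (adjusted p = 0.120) and -2.25 with letters E and F (adjusted p = 0.0785). Other signs turned within letter pairs, and those that crossed 0 on leaving out a library are given below. With letters E and F these were OGDH (0.018) and SUCLG1 (-0.028) in LPS minus Control, SUCLG1 (-0.12) in DCVC minus Control, IDH2 (-0.035) and SUCLG1 (-0.063) in DCVC_LPS minus LPS, and SUCLG1 (0.061) and SDHA (-0.017) in the interaction. With letters C and D they were MDH2 (0.016) in DCVC minus Control, SUCLG1 (-0.0035) in DCVC_LPS minus LPS and OGDH (-0.0083) in DCVC_LPS minus DCVC. With letters A and B they were FH (0.065) in DCVC_LPS minus DCVC and SUCLG1 (0.047) in the interaction. The cause of these changes was not tested.

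On leaving out each library in turn, 1 to 3 members fell in LPS minus Control, 1 to 2 rose in DCVC_LPS minus LPS, 1 to 2 fell in DCVC_LPS minus DCVC and 1 to 2 interactions lay above 0. The second riser was IDH2 without DCVC_LPS E, and SDHA without DCVC_LPS A, LPS E or LPS F. The second to fall was SDHA, without DCVC A or DCVC_LPS F, and the second interaction was OGDH, without DCVC B, LPS E, Control F or DCVC_LPS F. Signs crossed 0 for SUCLG1 in DCVC_LPS minus LPS (-0.0015 to 0.11) and the interaction (-0.094 to 0.046), FH in DCVC_LPS minus DCVC (-0.078 to 0.0093) and SDHA in the interaction (-0.022 to 0.033). ACOD1 in DCVC_LPS minus LPS ran from -2.78 to -2.53. Depth limits ACOD1 without LPS, where 4 and 7 reads stand behind the group values.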
